A study of Homo sapiens with 4 samples.

Results

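The first response of hFOB 1.19 cells to the shift in temperature was read from the day 3 and day 0 libraries. hFOB 1.19 is a human fetal osteoblast line derived as a clone and immortalized with a temperature-sensitive SV40 large T antigen, which is active at the lower temperature and is lost from function at the higher one. Cells were grown at 33.5°C on day 0, which the labels call control, and at 39.5°C on day 3, which they call mineralizing. Both days share the line, its transgene and the total RNA protocol, and no allele or drug sets them apart. Temperature and time in culture changed together and cannot be told apart, and the level or activity of large T was not analysed here. Each day is 1 library, so no difference between the days has a replicate check and no test was made.

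Expression was deposited as FPKM (fragments scaled to transcript length and to the mapped fragments of the library) for each transcript. FPKM were summed per gene symbol, and the comparison covered the 12626 of 19610 mRNA symbols and the 2097 of 3214 long noncoding RNA (lncRNA) symbols with at least 1 FPKM on either day. The log2 ratio is the log2 of day 3 over day 0 after 1 FPKM was added to both, so ratios at low FPKM are drawn towards 0. A gene is said to rise or fall where this ratio is at least 1 or at most -1, a 2-fold difference. The files hold no read counts, so the depth behind a value is unknown and no interval is given. In a bulk library, fewer cells in a state and less RNA per cell cannot be told apart.

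Large T antigen is known to bind the p53 and RB tumour suppressors. p53 switches on genes that halt the cell cycle and trigger repair or apoptosis, and RB and its relatives p107 and p130 restrain genes of S phase and mitosis. Mitotic genes are repressed through a promoter element known as the cell cycle genes homology region (CHR), often beside CCAAT boxes, and S phase genes through E2F sites. Warming and cooling have their own known signatures, as heat shock factors bind heat shock elements (HSE) of chaperone genes while RBM3 and CIRBP are induced by mild cold. In bone, the osteoblast is the cell that lays down a matrix of type I collagen and then mineralizes it with the help of alkaline phosphatase.

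Of the mRNA genes, 1046 were at least 2-fold higher on day 3 (8.28% of those kept) and 681 were at least 2-fold lower (5.39%). At 4-fold, 214 were higher and 99 lower. The same rule between days 9 and 6, both at the higher temperature and neither part of the first comparison, gave 49 higher genes (0.391%) and 21 lower ones (0.167%). The median log2 ratio over all kept mRNA genes was -0.089, and the 5th to 95th percentiles ran from -1.03 to 1.29. Between days 9 and 6 that range was -0.39 to 0.35. By this measure, 23.8% of the 1084 mRNA genes at 100 FPKM or more on the higher day passed the limit, against 12.6% of the 2386 genes below 5 FPKM. The added 1 FPKM draws ratios in the lowest class towards 0, so the 2 shares are not measured alike. In the highest class falls outnumbered rises (155 against 103), and in the lowest class rises outnumbered falls (249 against 52). The summed mRNA FPKM was 617857 on day 0 and 538072 on day 3. Scaling the days to equal sums of mRNA and lncRNA FPKM moved the log2 ratios of kept mRNA genes up by a median of 0.16 and those of kept lncRNA genes by 0.12, with less movement at low FPKM. The share of rises among the mRNA genes past the limit was then 75.6% in place of 60.6%.

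**Figure D1:**
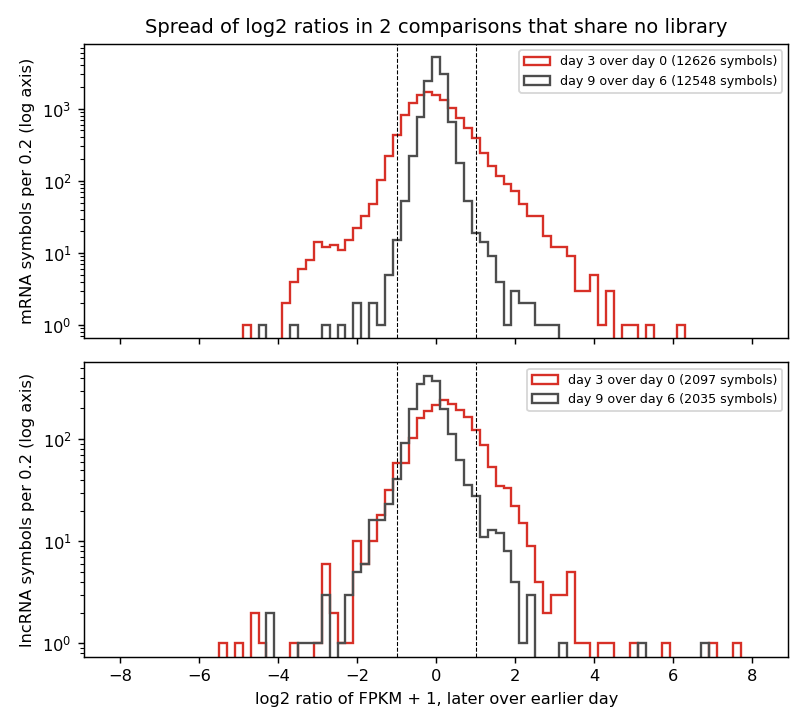
Number of mRNA symbols (upper panel) and lncRNA symbols (lower panel) per 0.2 of log2 ratio, on a log axis, for day 3 over day 0 (red) and day 9 over day 6 (grey), with dashed lines at the 2-fold limits. The red mRNA curve is the broader one, with 1046 genes above the upper line and 681 below the lower line, against 49 and 21 in the grey curve.

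The 15 largest rises among mRNA genes with at least 10 FPKM on the higher day were TENM4, ABI3BP, INPP5D, GDF15, IGFBP5, CDKN1A, CLCA2, SMCO4, KRT34, SULF2, FAM198B, PAPPA, CEMIP, CCND2 and CYFIP2, in falling order. They ran from a log2 ratio of 6.16 to 3.74. ABI3BP, a matrix protein, went from 6.34 FPKM on day 0 to 294 on day 3 (log2 ratio 5.33), and stood at 646 FPKM on day 6 and 933 on day 9. CDKN1A, which codes for the cell cycle inhibitor p21, had the highest level of the 15 on day 3 and went from 74.7 FPKM on day 0 to 1524 on day 3 (log2 ratio 4.33). KRT34, a hair keratin, went from 2.42 to 56.1 FPKM (log2 ratio 4.06), and CLCA2, a p53-induced membrane protein, from 0.211 to 22.9 FPKM (log2 ratio 4.30). SULF2, which trims heparan sulphate, went from 2.85 to 60.7 FPKM (log2 ratio 4.0), and CEMIP, which takes part in hyaluronan breakdown, from 0.842 to 26.7 FPKM (log2 ratio 3.91). INPP5D, a lipid phosphatase best known from blood cells, went from 1.15 to 67.1 FPKM (log2 ratio 4.98), while PTPRC, the pan-leukocyte marker, read 0.0750 and 0.295 FPKM on the 2 days. Its rise lay in 2 of its 4 transcripts, and CDKN1A rose in its main transcript (from 70.0 to 1454 FPKM).

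A pair of the 15 rested on a single transcript seen on day 3 only. TENM4, a teneurin of the cell surface, had 169.6 FPKM on day 3, of which 164 came from 1 transcript listed at 0 on the other 3 days. SMCO4 had 122 FPKM on day 3, of which 106 came from a transcript listed at 0 on the other days. Among all rises, 8 of 1046 mRNA genes took more than 50% of their day 3 value from transcripts above 0 in that library alone. The same held of the day 0 value for 4 of the 681 falls.

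The 15 largest falls were RBM3, PLK1, LUZP6, 11 histone genes and RP1-34B20.21, and ran from -4.74 to -3.26. RBM3, the cold-inducible RNA-binding protein, went from 272 FPKM on day 0 to 9.21 on day 3 (log2 ratio -4.74). PLK1, the polo kinase that drives entry into and progress through mitosis, went from 129.98 FPKM on day 0 to 8.02 on day 3 (log2 ratio -3.86). RP1-34B20.21 went from 353 to 31.2 FPKM (log2 ratio -3.46). LUZP6, whose only transcript lies within the gene MTPN, was listed at 0 on day 3 after 13.4 FPKM on day 0, so no fold is given.

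**Figure D2:**
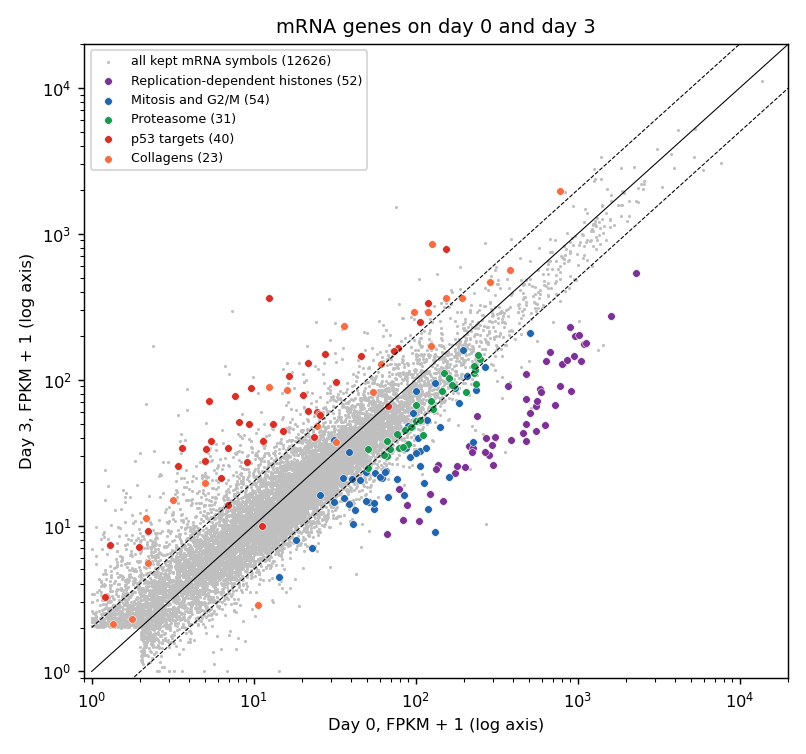
FPKM + 1 on day 3 (vertical) against day 0 (horizontal), both on log axes, for the 12626 kept mRNA symbols (grey) and the members of 5 gene lists in colour. The solid line marks equality and the dashed lines 2-fold. All 52 histone genes (purple) and 41 of 54 mitosis genes (blue) lie below the lower dashed line, and 36 of 40 p53 targets (red) above the upper one.

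To describe functions, 48 lists of genes of a pathway or class were read by the number of members past the limit and by the median log2 ratio of the members kept. The lists are descriptions and carry no test, and are set beside 8.28% of genes higher and 5.39% lower among all mRNA genes. They were written with earlier results of these data known, so their shares are not an unbiased measure of a pathway. Calls that end under the scaling to equal sums are given with each list. With only the most abundant transcript of each gene, those of TIPIN, CDKN1C, FANCB, PER1, DKK3, JAG2, ABCG1, SRSF1, TRA2B and HOXA7 ended as well. So did those of NUF2, ANLN and MYBL2 of mitosis, SPATA18 of the p53 list and IL32 of the cytokines. The same held for MAFK, LAMB3, PGF, TM7SF2, GAR1, BOP1, PSMA1 and PSMD12. HMGN5 was then under 1 FPKM on both days.

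**Figure D3:**
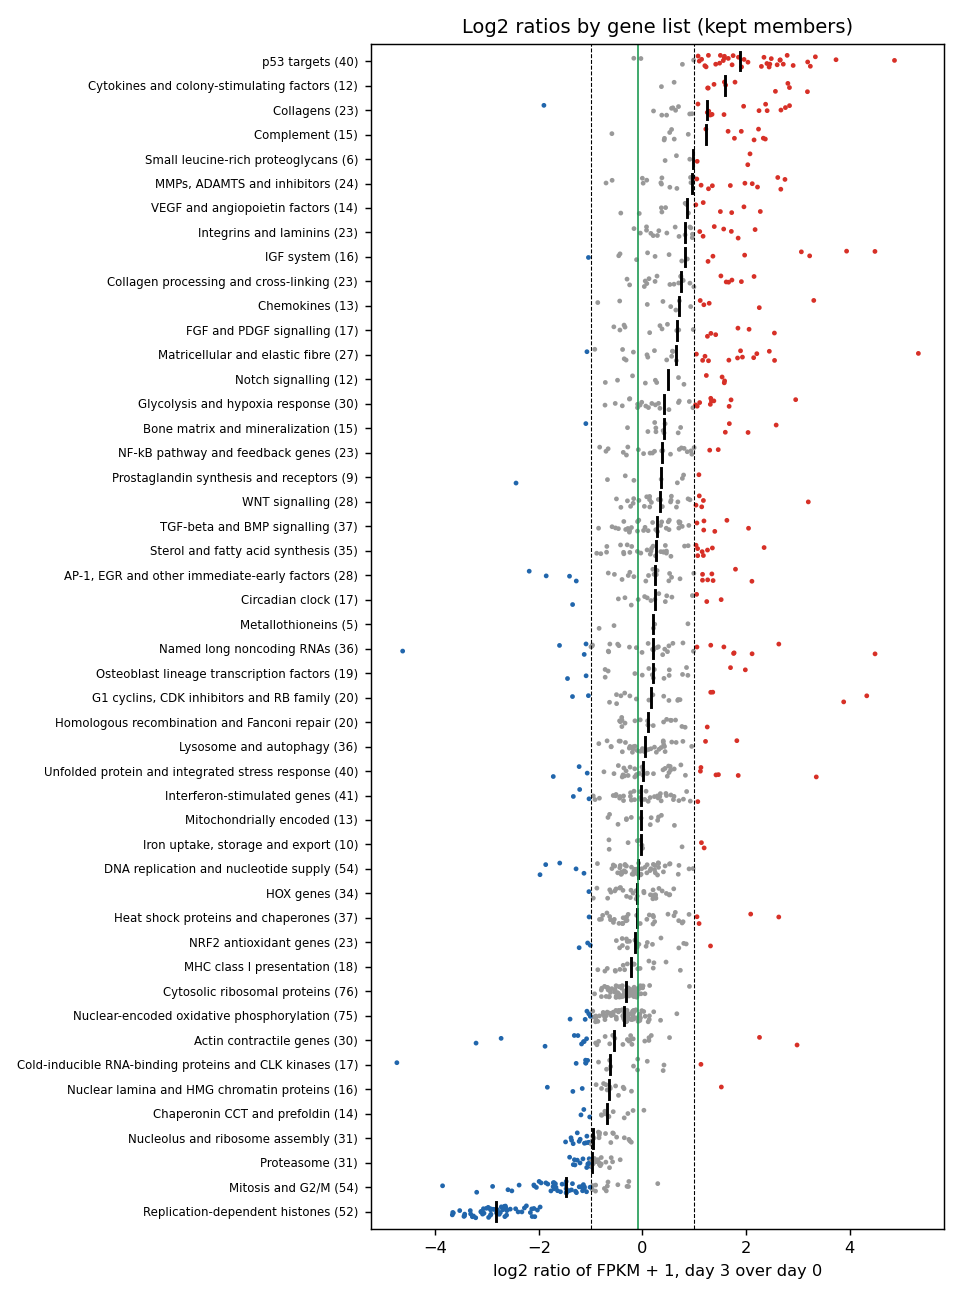
Log2 ratio of FPKM + 1, day 3 over day 0, for each kept member (points) of the 48 lists, with the number of kept members in brackets, ordered by list median (black bars). Red points are at or above 1, blue points at or below -1 (dashed lines), and the green line is the median of all kept mRNA genes. Lists run from the histones at the bottom (median -2.84) to the p53 targets at the top (median 1.88).

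Genes of mitosis fell together. Of 54 genes of the G2 phase and mitosis, 41 fell (75.9% of the list) and 0 rose, with a median log2 ratio of -1.47. Under the scaling to equal sums 35 fell, and CDC25C, TTK, MKI67, ANLN, MYBL2 and GTSE1 did not pass. CCNB1, cyclin B1, went from 225 FPKM on day 0 to 36.4 on day 3 (log2 ratio -2.60), CDC20, an activator of the anaphase-promoting complex, from 160.00 to 20.7 FPKM (log2 ratio -2.89), and AURKA, a spindle pole kinase, from 112 to 18.7 FPKM (log2 ratio -2.52). KIF20A, a kinesin of cytokinesis, went from 118 to 11.9 FPKM (log2 ratio -3.20). Kinetochore and spindle genes fell as well, among them CENPA, the centromeric histone, from 54.5 to 12 FPKM (log2 ratio -2.09), CENPE, from 40.0 to 9.27 FPKM (log2 ratio -2.00), and TPX2, from 141 to 46.3 FPKM (log2 ratio -1.58). MKI67, which codes for the proliferation marker Ki-67, went from 116 to 52.3 FPKM (log2 ratio -1.14) and did not pass under the scaling to equal sums. CDK1, the catalytic partner of cyclin B, did not pass the limit (129.9 to 93.2 FPKM), nor did FOXM1 (94.8 to 58.0 FPKM), AURKB (85.7 to 45.2 FPKM) or TOP2A (207 to 105 FPKM), each of which was lower on day 3. Of the 54, 53 had a lower value on day 3, and CENPM a higher one (30.3 to 37.4 FPKM). The levels of the later libraries lay near those of day 3, with PLK1 at 6.19 FPKM on day 6 and 8.03 on day 9 and CCNB1 at 31.9 FPKM on day 6 and 32.4 on day 9.

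The CHR element, TTTGAA on either strand, was searched in the 250 bases before each RefSeq start site (GRCh38.p14). It was found in 28 of the 53 start site windows of the list (52.8%), against 13.3% of all 35116 windows and 9.06% of those of the kept mRNA genes. The CCAAT box, CCAAT on either strand, was in 79.2% of the mitotic windows and 32% of all windows. The 5 members that hold a CHR and fell most are shown 5′ to 3′ on the strand of the gene, with each CHR in capitals.
PLK1 (chr16:23678838-23678887, plus strand): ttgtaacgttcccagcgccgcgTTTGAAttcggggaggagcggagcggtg
CDC20 (chr1:43358894-43358943, plus strand): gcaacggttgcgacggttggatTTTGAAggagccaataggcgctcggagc
DLGAP5 (chr14:55191667-55191716, minus strand): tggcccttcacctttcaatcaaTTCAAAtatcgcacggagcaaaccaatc
HMMR (chr5:163460588-163460631, plus strand): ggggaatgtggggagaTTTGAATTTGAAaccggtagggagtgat
CENPA (chr2:26786016-26786055, plus strand): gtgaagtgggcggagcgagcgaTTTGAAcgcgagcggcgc

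In HMMR, which codes for a spindle-associated hyaluronan receptor, 2 such elements stand side by side, and in DLGAP5, a spindle protein, the element shown reads on the opposite strand. CDC20 and DLGAP5 each hold a further match farther from the start, outside the stretch shown. The CHR of PLK1 lies 24 to 29 bases before the start and the nearer one of CDC20 60 to 65 bases before it. The 26 members with a CHR had a median log2 ratio of -1.47 and 21 of them fell, and the 19 without one had a median of -1.37 and 14 fell. The other 9 members have no window in the table used.

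Genes of DNA replication were mostly within the limit. Of 54 such genes, 5 fell and 0 rose, and the median log2 ratio of -0.095 lay near that of all kept mRNA genes. It turned to 0.066 under the scaling to equal sums, by which PCNA and CDT1 rose and ORC1 did not pass. PCNA, the sliding clamp of DNA polymerases, was 159 FPKM on day 0 and 313 on day 3, just within the limit. TYMS (106 to 172 FPKM) and RRM2 (143 to 193 FPKM), which supply deoxynucleotides, were also above day 0, as were the licensing factors CDC6 (48.8 to 56.7 FPKM) and CDT1 (35.9 to 67.9 FPKM). The 5 falls were DBF4, the activator of the CDC7 kinase, from 19.1 to 4.10 FPKM (log2 ratio -1.98), E2F2, from 8.71 to 1.66 FPKM (log2 ratio -1.87), MCM6, from 28.5 to 8.75 FPKM (log2 ratio -1.60), TIPIN, from 24.1 to 9.33 FPKM (log2 ratio -1.28), and ORC1, from 15.1 to 6.38 FPKM (log2 ratio -1.13). MCM2, of the same helicase as MCM6, stayed within the limit (52.6 to 39.3 FPKM). The E2F site, TTTGGCGC or TTTCGCGC on either strand, was in 18% of the 61 replication windows, in 3.77% of the mitotic ones and in 0.968% of all windows, and the CHR in 3.28% of replication windows. Among members with a window, the 11 with an E2F site had a median log2 ratio of -0.43 and 3 of them fell. The 34 without one had a median of -0.033 and 2 fell.

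All 52 replication-dependent histone genes fell, with a median log2 ratio of -2.84, and even the smallest fall, that of HIST1H4K, was -1.98. Their transcripts, which lack a poly(A) tail and are made in S phase, are retained by ribosomal RNA depletion. HIST1H1B, a linker histone, went from 626 FPKM on day 0 to 48.2 on day 3 (log2 ratio -3.67), the H2B gene HIST1H2BB from 301 to 25.2 FPKM (log2 ratio -3.53), and HIST1H4C, from 1089 to 176 FPKM (log2 ratio -2.62). The 67 symbols that start with HIST1H or HIST2H made up 5.43% of the summed mRNA FPKM on day 0 and 0.972% on day 3. Histone copies are near-identical in sequence, so single values can share reads between genes and are uncertain, while the sum is less so. CCAAT was in 88% of 50 histone windows, the CHR in 32% and the E2F site in 24%.

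The control of G1 split. CDKN1A, given above, and CCND2, cyclin D2 (from 0.267 to 17.7 FPKM, log2 ratio 3.89), rose, as did the CDK inhibitors CDKN2B (from 8.34 to 22.3 FPKM, log2 ratio 1.32) and CDKN1C (from 1.78 to 6.13 FPKM, log2 ratio 1.36). CDKN2C, another CDK inhibitor, fell from 67.8 to 26.0 FPKM (log2 ratio -1.35), and so did E2F4 (from 28.7 to 13.4 FPKM, log2 ratio -1.04), though not under the scaling to equal sums. The remaining 14 of the 20 genes stayed within the limit, among them CCND1 (94.2 to 152 FPKM) and RB1 (32.5 to 54.4 FPKM). Of 20 genes of homologous recombination and Fanconi anaemia repair, FANCB rose (from 8.30 to 21.1 FPKM, log2 ratio 1.25) and 0 fell, and BRCA1 read 29.1 to 26.2 FPKM.

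Chromatin and lamina genes had lower values as a group, with 3 of 16 past the limit downward, 1 upward and a median of -0.66. HMGB3 fell from 73.7 to 19.9 FPKM (log2 ratio -1.84), HMGN2 from 772 to 344 FPKM (log2 ratio -1.16) and HMGN5 from 3.04 to 0.593 FPKM (log2 ratio -1.34), of which HMGN2 did not pass under the scaling to equal sums. LMNB1, lamin B1, did not pass (131 to 79.8 FPKM), nor did HMGB1 (655 to 424 FPKM) or HMGB2 (273 to 177 FPKM). HMGA2, an architectural protein of growing mesenchyme, rose from 28.5 to 83.7 FPKM (log2 ratio 1.52).

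Direct targets of p53 rose together. Of 40 genes of this list, 36 rose (90% of the list) and 0 fell, with the highest median of the 48 lists, 1.88. Among regulators of p53, MDM2, its ubiquitin ligase and its target, went from 154 FPKM on day 0 to 787 on day 3 (log2 ratio 2.35), and PPM1D, a phosphatase of the same feedback, from 10.5 to 37.2 FPKM (log2 ratio 1.73). Among growth-arrest genes, BTG2 went from 6.64 to 76.3 FPKM (log2 ratio 3.34), and GADD45A from 76.9 to 163 FPKM (log2 ratio 1.07). Pro-apoptotic members rose too, with BBC3, or PUMA, from 4.48 to 37.0 FPKM (log2 ratio 2.80), BAX from 118 to 337 FPKM (log2 ratio 1.51), the death receptor FAS from 4.10 to 32.6 FPKM (log2 ratio 2.72), and its relatives TNFRSF10B from 45.3 to 145 FPKM (log2 ratio 1.66) and EDA2R from 2.41 to 24.7 FPKM (log2 ratio 2.91). DNA repair and nucleotide members included RRM2B, the p53-induced ribonucleotide reductase subunit, from 20.6 to 129.9 FPKM (log2 ratio 2.60), XPC from 14.2 to 43.8 FPKM (log2 ratio 1.56), and DDB2 from 23.7 to 58.8 FPKM (log2 ratio 1.27).

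Metabolic and stress members of the p53 list moved the same way, with SESN1 from 4.03 to 26.7 FPKM (log2 ratio 2.46), SESN2 from 5.26 to 20.1 FPKM (log2 ratio 1.75) and TIGAR from 8.13 to 26.4 FPKM (log2 ratio 1.58). GDF15, a secreted stress cytokine, went from 11.4 FPKM on day 0 to 359.8 on day 3 (log2 ratio 4.87) and stood at 578 FPKM on day 6 and 767 on day 9. CDKN1A was highest on day 3, with 1391 FPKM on day 6 and 1283 on day 9, as was MDM2, with 467 FPKM on day 6 and 359 on day 9. The 4 members within the limit included SERTAD1 (10.2 to 8.97 FPKM), TRIAP1 (22.6 to 39.2 FPKM) and SUSD6 (5.98 to 12.8 FPKM). The p53 decamer, which is only part of a full p53 site, was found in 11.6% of the 43 windows of the list and 5.57% of all windows. Lists that did not rise had similar shares, with 13.2% for ribosomal protein genes, 12.5% for actin contractile genes and 11.5% for DNA replication. Most other lists had lower shares. The decamer therefore did not set the p53 list apart.

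**Figure D4:**
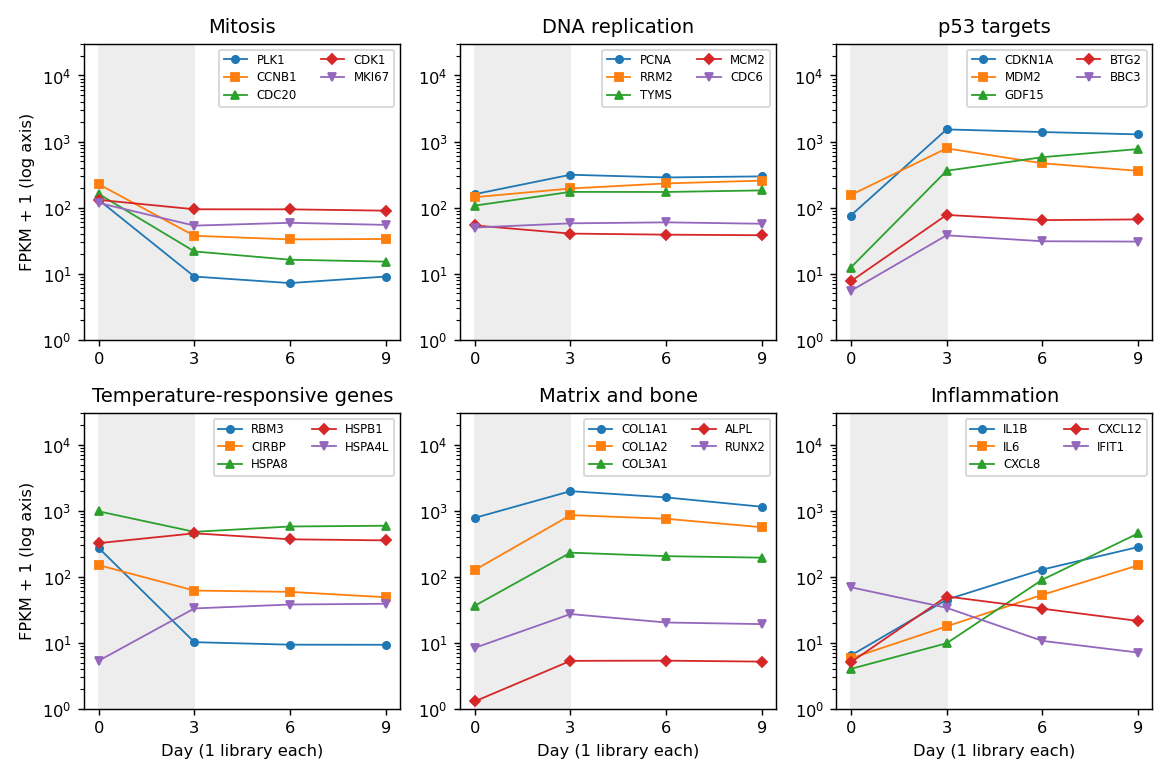
FPKM + 1 (log axis) of 30 genes in the day 0, 3, 6 and 9 libraries, 1 library each, in 6 panels, with the interval from day 0 to day 3 shaded. PLK1 and RBM3 drop by day 3 and stay low, CDKN1A is at 74.7 FPKM on day 0 and at 1283 FPKM or more afterwards, and IL1B, IL6 and CXCL8 are higher on day 6 and day 9 than on day 3.

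Genes that respond to temperature gave a mixed picture 3 days after the shift. Cold-inducible genes were lower, with RBM3 as given above and CIRBP from 149 FPKM on day 0 to 60.7 on day 3 (log2 ratio -1.28). The splicing factors SRSF1 (from 151 to 71.7 FPKM, log2 ratio -1.06), SRSF2 (from 84.3 to 38.9 FPKM, log2 ratio -1.10), SRSF3 (from 149 to 69.5 FPKM, log2 ratio -1.09) and TRA2B (from 141 to 65.4 FPKM, log2 ratio -1.10) fell, and CLK4, a kinase of such factors, rose from 10.5 to 24.2 FPKM (log2 ratio 1.13). In all, 6 of these 17 genes fell and 1 rose. Under the scaling to equal sums 2 fell, RBM3 and CIRBP, and the 4 splicing factors did not pass.

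Heat shock proteins and their cochaperones were mostly within the limit. Of 37 kept, 4 rose and 1 fell, and the median of -0.11 turned to 0.05 under the scaling to equal sums. The 4 rises were HSPA4L, a nucleotide exchange factor of the Hsp110 family, from 4.34 to 32.1 FPKM (log2 ratio 2.63), CRYAB, a small heat shock protein, from 15.4 to 68.8 FPKM (log2 ratio 2.09), DNAJB4, from 29.9 to 65.0 FPKM (log2 ratio 1.09), and HSPA6, an Hsp70 that is silent without stress, from 0.205 to 1.5 FPKM (log2 ratio 1.05). The classic inducible genes stayed within the limit, with HSPA1A at 58.2 to 63.8 FPKM, DNAJB1 at 70.2 to 56.9 FPKM, HSPH1 at 49.1 to 38.7 FPKM and HSP90AA1 at 506 to 491 FPKM. HSPA8, the constitutive Hsp70, fell from 977 to 477 FPKM (log2 ratio -1.03), but did not pass under the scaling to equal sums, by which 0 of the 37 fell. The HSE core, GAANNTTC on both strands, was in 16 of 46 windows of the list (34.8%), against 5.78% of all windows. Among members with a window, the 16 with the core had a median log2 ratio of 0.11, with 1 rise and 1 fall. The 16 without it had a median of -0.35, with 2 rises and 0 falls. The 3 members with this core that moved most are shown to set a rise beside 2 decreases, with the core nearest the start in capitals. Each holds a further match farther from the start.
HSPA6 (chr1:161524449-161524500, plus strand): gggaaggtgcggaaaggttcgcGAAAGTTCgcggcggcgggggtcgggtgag
HSPA8 (chr11:123062157-123062208, minus strand): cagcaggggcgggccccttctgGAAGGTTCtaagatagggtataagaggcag
HSP90AB1 (chr6:44247814-44247865, plus strand): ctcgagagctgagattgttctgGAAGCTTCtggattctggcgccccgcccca

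HSPA6 rose from a level of 0.205 FPKM, HSPA8 fell as given above, and HSP90AB1, the constitutive Hsp90, was lower within the limit (433 to 243 FPKM). The cytosolic chaperonin CCT and prefoldin, which fold actin and tubulin, had a median of -0.69, with CCT2 (from 128 to 57.9 FPKM, log2 ratio -1.13), CCT3 (from 144 to 70.5 FPKM, log2 ratio -1.02) and CCT5 (from 166 to 72.5 FPKM, log2 ratio -1.19) past the limit among 14 genes. Of the 3, CCT5 alone passed under the scaling to equal sums. Of 40 genes of the unfolded protein and integrated stress responses, 6 rose and 3 fell. DDIT4, an inhibitor of mTORC1, went from 2.76 to 37.6 FPKM (log2 ratio 3.36), ATF3 from 8.61 to 33.6 FPKM (log2 ratio 1.85), and the endoplasmic reticulum chaperone PDIA4 from 66.7 to 146 FPKM (log2 ratio 1.12). HSPA5, or BiP, the usual reporter of that response, was 144 to 138 FPKM and DDIT3, or CHOP, 17.1 to 22.9 FPKM. The amino acid transporters SLC7A5 (from 83.1 to 24.5 FPKM, log2 ratio -1.72), SLC3A2 (from 93.5 to 44.1 FPKM, log2 ratio -1.07) and SLC7A11 (from 9.83 to 3.64 FPKM, log2 ratio -1.22) fell, of which SLC3A2 did not pass under the scaling to equal sums.

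Protein turnover and ribosome assembly were lower. All 31 proteasome genes had a lower value on day 3, 13 of them past the limit, with a median of -0.98. PSMC1, an ATPase of the regulatory cap, went from 110.3 to 41.0 FPKM (log2 ratio -1.41), PSMD2 from 236 to 92.8 FPKM (log2 ratio -1.34), and PSMB7, a catalytic subunit, from 203 to 81.1 FPKM (log2 ratio -1.31). All 31 genes of the nucleolus and ribosome assembly were lower as well, 12 past the limit, with a median of -0.96. NCL, nucleolin, went from 445 to 204 FPKM (log2 ratio -1.12), NPM1, nucleophosmin, from 1225 to 599 FPKM (log2 ratio -1.03), and the RNA helicase DDX21 from 77.9 to 29.3 FPKM (log2 ratio -1.38). Under the scaling to equal sums, 6 proteasome genes and 7 of the nucleolus remained past the limit, NCL and NPM1 not among them. Of 76 cytosolic ribosomal protein genes, 0 passed in either direction, with a median of -0.31, and their summed FPKM was 89409.6 on day 0 and 73358 on day 3.

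Nuclear genes of oxidative phosphorylation had a median of -0.35, and 5 of 75 fell, among them ATP5B, a catalytic subunit of ATP synthase (from 306 to 116 FPKM, log2 ratio -1.40). Under the scaling to equal sums 1 of the 75 fell. None of the 13 genes of the mitochondrial genome passed the limit, and together they made up 7.17% and 7.59% of the summed mRNA FPKM on the 2 days. Of 30 genes of glycolysis and the hypoxia response, 10 rose and 0 fell. The largest rise was NDRG1, from 14.2 to 117 FPKM (log2 ratio 2.96), followed by PFKFB4 (from 4.55 to 17.2 FPKM, log2 ratio 1.71) and BNIP3, a mitophagy receptor (from 44.2 to 143 FPKM, log2 ratio 1.67). SLC2A1, the glucose transporter GLUT1, went from 41.7 to 106 FPKM (log2 ratio 1.32) and HK2, hexokinase 2, from 7.54 to 20.5 FPKM (log2 ratio 1.33), while GAPDH (1877 to 1964 FPKM) and LDHA (1065 to 999 FPKM) moved little.

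Collagen genes rose. Of 23 kept, 13 rose and 1 fell, with a median of 1.25, and the list's summed FPKM was 2506 on day 0 and 6088 on day 3. COL1A1 and COL1A2, the chains of type I collagen, went from 777 FPKM on day 0 to 1974 on day 3 (log2 ratio 1.34) and from 125 to 856 FPKM (log2 ratio 2.76). COL3A1, its partner in soft fibrils, went from 35.3 to 231 FPKM (log2 ratio 2.67), and COL7A1, of anchoring fibrils, from 11.5 to 88.7 FPKM (log2 ratio 2.84). Basement membrane chains rose in COL4A5 (from 15 to 84.0 FPKM, log2 ratio 2.41) and COL4A6 (from 1.18 to 10.3 FPKM, log2 ratio 2.38), and COL4A1 was within the limit (288 to 467 FPKM). COL5A3 was the 1 fall, from 9.63 to 1.84 FPKM (log2 ratio -1.90). The rise was largest on day 3 for COL1A1, COL1A2 and COL3A1, which read 1146, 561 and 193 FPKM on day 9. With the 6 members under 1 FPKM on both days counted in, the median of the list was 0.91.

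Genes that modify collagen rose in part, with 6 of 23 past the limit and 0 lower. P4HA1 (from 46.8 to 212 FPKM, log2 ratio 2.16) and P4HA2 (from 93.0 to 268 FPKM, log2 ratio 1.52), the prolyl hydroxylases that stabilize the triple helix, and PLOD2, a lysyl hydroxylase of cross-linking (from 82.0 to 262 FPKM, log2 ratio 1.66), were the most abundant of the 6. LOX, the lysyl oxidase, was 145 to 153 FPKM and LOXL2 227 to 393 FPKM.

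**Figure D5:**
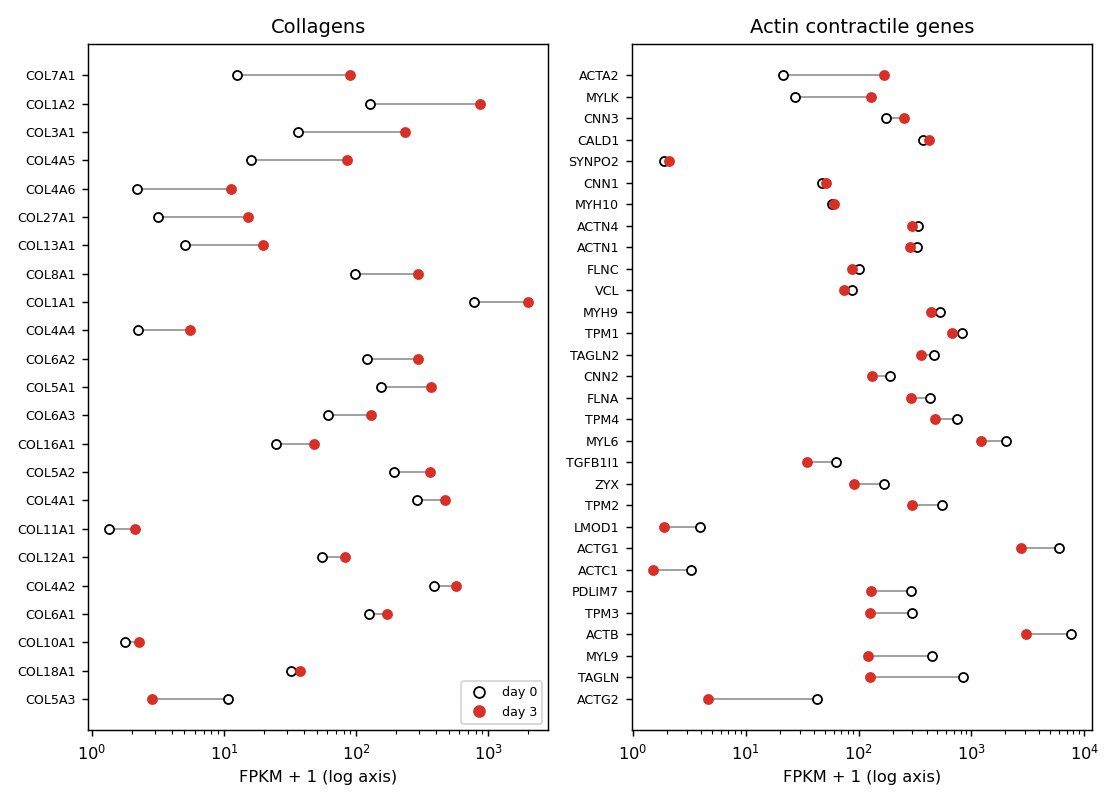
FPKM + 1 (log axis) on day 0 (open circles) and day 3 (red circles) for the kept collagen genes (left, 23) and actin contractile genes (right, 30), ordered by log2 ratio. For 13 collagens the red circle lies at least 2-fold to the right and for COL5A3 to the left. For the contractile genes 9 lie at least 2-fold to the left, and ACTA2 and MYLK to the right.

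Other matrix genes rose with the collagens. Of 27 matricellular and elastic fibre genes, 13 rose and 1 fell. FN1, fibronectin, went from 831 to 1919.9 FPKM (log2 ratio 1.21), FBN1, fibrillin, from 187 to 419.8 FPKM (log2 ratio 1.16), THBS2 from 13.9 to 80.3 FPKM (log2 ratio 2.45), EFEMP1 from 34.6 to 164 FPKM (log2 ratio 2.21), and VCAN, versican, from 3.48 to 15.7 FPKM (log2 ratio 1.89). The one fall was POSTN, periostin, from 306 to 145 FPKM (log2 ratio -1.07), which stood at 231 FPKM on day 6 and 268 on day 9. It did not pass under the scaling to equal sums, by which 0 of the list fell. Among 6 small leucine-rich proteoglycans, which bind collagen fibrils, LUM (from 5.03 to 24.4 FPKM, log2 ratio 2.08), DCN (from 4.07 to 19.8 FPKM, log2 ratio 2.03) and BGN (from 65.3 to 137 FPKM, log2 ratio 1.06) rose. Of this list 5 more were under 1 FPKM on both days, and its median ran from 0.44 to 2.03 over the settings tried. Of 24 proteases and inhibitors of the matrix kept, 11 rose and 0 fell, with a median of 0.97. A further 10 were under 1 FPKM on both days, and the median ran from 0.37 to 1.20 over the settings tried. SERPINE2 (from 18.2 to 128 FPKM, log2 ratio 2.75), ADAMTS1 (from 33.9 to 222 FPKM, log2 ratio 2.67), PLAU (from 4.89 to 35.1 FPKM, log2 ratio 2.61) and PLAT (from 19.6 to 95 FPKM, log2 ratio 2.22), of the plasminogen system and aggrecan cleavage, led, followed by MMP2, gelatinase A (from 7.18 to 34.6 FPKM, log2 ratio 2.12). TIMP1 read 239 to 239 FPKM. Of 23 integrins and laminins, 7 rose, with ITGA11, a collagen receptor of mesenchyme, from 8.26 to 29.4 FPKM (log2 ratio 1.72), ITGB4 from 1.87 to 12 FPKM (log2 ratio 2.18), and LAMA1 from 1.92 to 9.51 FPKM (log2 ratio 1.85), and 0 fell. Under the scaling to equal sums 11 of the 23 rose.

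Bone genes rose in part, and most of those kept stayed within the limit. Of 15 bone matrix and mineralization genes kept, 4 rose and 1 fell, and 8 more were under 1 FPKM on both days, among them BGLAP, IBSP, DMP1 and PHEX. ALPL, the tissue-nonspecific alkaline phosphatase, went from 0.294 FPKM on day 0 to 4.32 on day 3 (log2 ratio 2.04) and stood at 4.35 FPKM on day 6 and 4.18 on day 9. TNFRSF11B, osteoprotegerin, the decoy receptor of RANKL, went from 2.54 to 20.2 FPKM (log2 ratio 2.58), STC1 from 1.20 to 6.03 FPKM (log2 ratio 1.68), and FAM20C, the kinase of secreted matrix proteins, from 15.8 to 49.9 FPKM (log2 ratio 1.6). SLC20A2, a phosphate transporter, fell from 29.9 to 13.5 FPKM (log2 ratio -1.09), but did not pass under the scaling to equal sums. SPARC, osteonectin, was abundant and within the limit (1113 to 1469 FPKM), and SPP1, osteopontin, was low (0.794 to 1.89 FPKM). Among 19 transcription factors of the lineage, RUNX2, the master factor, went from 7.37 to 26.2 FPKM (log2 ratio 1.70) and MSX2 from 1.01 to 6.97 FPKM (log2 ratio 1.99). ID1 (from 53.8 to 19.1 FPKM, log2 ratio -1.45) and ID4 (from 3.70 to 1.21 FPKM, log2 ratio -1.09), BMP-induced inhibitors of basic helix-loop-helix factors, fell. Under the scaling to equal sums 4 of the 19 rose and 1 fell, ID4 not passing. SP7, osterix, read 0.109 and 0.134 FPKM, and DLX5 1.72 to 2.63 FPKM.

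The actin cytoskeleton split by gene. Of 30 contractile genes, 9 fell and 2 rose, with a median of -0.55. The cytoplasmic actins ACTB and ACTG1, among the most abundant mRNAs, went from 7636 FPKM on day 0 to 3066 on day 3 (log2 ratio -1.32) and from 5962 to 2732 FPKM (log2 ratio -1.13). TAGLN, transgelin, went from 839 to 126 FPKM (log2 ratio -2.73), MYL9, a myosin light chain, from 449 to 121 FPKM (log2 ratio -1.88), and ACTG2, smooth muscle gamma actin, from 41.9 to 3.62 FPKM (log2 ratio -3.21). Under the scaling to equal sums 7 fell, ACTG1 not among them. The reverse held for ACTA2, smooth muscle alpha actin (from 20.4 to 168 FPKM, log2 ratio 2.99), and MYLK, the kinase of myosin light chains (from 26.1 to 129 FPKM, log2 ratio 2.26). CNN1, calponin, was within the limit (46.3 to 50.6 FPKM). The CArG box, to which the factor SRF binds, was in 18.8% of 48 windows of the list and 1.16% of all windows. Among members with a window, the 9 with a box had a median log2 ratio of -0.63, with 1 rise and 3 falls. The 18 without one had a median of -0.25, with 1 rise and 3 falls. The 4 members with a CArG box that moved most, 3 falls and 1 rise, are shown with the box in capitals. ACTG2 holds a further match farther from the start.
ACTG2 (chr2:73892913-73892966, plus strand): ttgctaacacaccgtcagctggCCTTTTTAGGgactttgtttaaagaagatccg
MYLK (chr3:123620611-123620664, minus strand): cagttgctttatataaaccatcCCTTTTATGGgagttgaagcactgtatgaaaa
ACTC1 (chr15:34795627-34795680, minus strand): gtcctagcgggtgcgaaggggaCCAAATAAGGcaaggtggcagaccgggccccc
ACTG1 (chr17:81512862-81512915, minus strand): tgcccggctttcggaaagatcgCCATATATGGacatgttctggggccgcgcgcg

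MYLK rose and the genes ACTG2, ACTC1 (from 2.31 to 0.502 FPKM, log2 ratio -1.14) and ACTG1 fell with a box of the same kind within 109 bases of a RefSeq start site. A gene can have several such sites, and which of them gave the FPKM was not examined. The site shown for MYLK need not be that of its kinase transcript. The motif is a description of these letters and says nothing of binding.

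Cytokine genes rose on day 3, and IL1B, IL6 and CSF2 were higher again on days 6 and 9. Of 12 cytokines kept, 10 rose and 0 fell, with a median of 1.59. IL1B went from 5.41 FPKM on day 0 to 43.9 on day 3 (log2 ratio 2.81), and stood at 127 FPKM on day 6 and 280.4 on day 9. IL6 went from 4.81 to 16.7 FPKM (log2 ratio 1.61) and was at 52.2 FPKM on day 6 and 148 on day 9, and CSF2, or GM-CSF, went from 0.137 to 7.13 FPKM (log2 ratio 2.84) and was at 45.6 FPKM on day 6 and 129.5 on day 9. TNFSF15 went from 0.716 to 14.6 FPKM (log2 ratio 3.19), EBI3 from 1.63 to 14.6 FPKM (log2 ratio 2.57), and CSF1, the macrophage and osteoclast growth factor, from 12.2 to 44.7 FPKM (log2 ratio 1.79). LIF went from 10.6 to 29.3 FPKM (log2 ratio 1.38) and IL1A from 1.37 to 4.68 FPKM (log2 ratio 1.26). IL11 and IL15 were within the limit. With the 10 members under 1 FPKM on both days counted in, the median was 0.64.

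Of 13 chemokines kept, 5 rose and 0 fell. CXCL12, a stromal chemokine that holds blood stem cells in the marrow, went from 4.06 FPKM on day 0 to 49.2 on day 3 (log2 ratio 3.31) and was lower later (31.8 FPKM on day 6 and 20.4 on day 9). CCL2, which attracts monocytes, went from 23.8 to 117 FPKM (log2 ratio 2.26). CXCL8, interleukin 8, made most of its rise after day 3, as it went from 3.02 to 8.82 FPKM (log2 ratio 1.29) and then stood at 89.1 FPKM on day 6 and 452 on day 9. CXCL1 followed that order, from 4.48 to 11.5 FPKM (log2 ratio 1.19), with 35.7 FPKM on day 6 and 103 on day 9. Of 23 genes of the NF-kB pathway, SOD2 (from 43.9 to 123 FPKM, log2 ratio 1.46) and VCAM1 (from 0.286 to 2.16 FPKM, log2 ratio 1.3) rose and 0 fell, and NFKBIA, the feedback inhibitor, read 40.4 to 46.3 FPKM. The count of rises depended on the scaling, with 5 of the 23 after centring on the median of all kept mRNA genes and 6 under the scaling to equal sums. The kappaB site was in 60% of the 10 chemokine windows, 38.2% of the 34 of the NF-kB list and 5.21% of all windows.

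Complement genes rose, 8 of 15 kept, with 0 lower and a median of 1.22. C1R (from 19.9 to 97.9 FPKM, log2 ratio 2.24) and C1S (from 5.23 to 20.3 FPKM, log2 ratio 1.78), the proteases of the classical pathway, and C3 (from 3.01 to 16.9 FPKM, log2 ratio 2.16), the hub of the cascade, were among them. CLU, clusterin, went from 23.0 to 124 FPKM (log2 ratio 2.37). With the 3 members under 1 FPKM on both days counted in, the median was 0.75.

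Interferon-stimulated genes were mostly within the limit. Of 41, 1 rose and 3 fell, and the median of -0.019 turned to 0.14 under the scaling to equal sums. IFIT1 (from 68.2 to 32.9 FPKM, log2 ratio -1.03), OASL (from 9.74 to 3.63 FPKM, log2 ratio -1.21) and HERC6 (from 20.7 to 7.59 FPKM, log2 ratio -1.33) fell, and HERC5 rose from 12.3 to 26.9 FPKM (log2 ratio 1.07). Under that scaling 3 rose and 2 fell, IFIT1 not passing. MX1 (139.7 to 73.5 FPKM) and ISG15 (371 to 273 FPKM) were within the limit, and stood at 26.7 FPKM on day 6 and 19.6 on day 9, and 149.9 FPKM on day 6 and 146 on day 9. None of 18 genes of MHC class I presentation passed the limit, with B2M at 1444 to 1137 FPKM.

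Among immediate-early factors, 7 of 28 rose and 4 fell. The ERK phosphatases DUSP4 (from 5.04 to 25.2 FPKM, log2 ratio 2.11), DUSP5 (from 9.14 to 23.3 FPKM, log2 ratio 1.26) and DUSP6 (from 5.82 to 14.2 FPKM, log2 ratio 1.16) rose, as did FOSL2 (from 42.9 to 112 FPKM, log2 ratio 1.36). EGR1 (from 39.2 to 10.1 FPKM, log2 ratio -1.86) and KLF2 (from 45.9 to 9.30 FPKM, log2 ratio -2.19) fell. JUN was just within the limit (51.7 to 104 FPKM), FOS was low on both days (1.75 to 1.27 FPKM), and the YAP targets CTGF (309.7 to 377 FPKM) and CYR61 (445 to 483 FPKM) changed little.

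Growth factor systems held several of the largest rises. In the IGF system, 7 of 16 genes rose and 1 fell. IGFBP5, the main IGF-binding protein of bone, went from 2.86 FPKM on day 0 to 85.8 on day 3 (log2 ratio 4.49), PAPPA, the protease that frees IGF from IGFBP4 and IGFBP5, from 6.07 to 108 FPKM (log2 ratio 3.94), and IGFBP4 from 134 to 531 FPKM (log2 ratio 1.97). The ligand IGF2 went from 1.66 to 21.3 FPKM (log2 ratio 3.07), the receptor IGF1R from 17.6 to 46.7 FPKM (log2 ratio 1.36) and IGFBP2 from 2.70 to 33.7 FPKM (log2 ratio 3.23). IGFBP3 fell from 195 to 93.9 FPKM (log2 ratio -1.04) and was at 97.8 FPKM on day 6 and 234 on day 9. It did not pass under the scaling to equal sums, by which 0 of the list fell. In WNT signalling, 5 of 28 rose and 0 fell. They were the secreted inhibitors SFRP1 (from 1.95 to 26.1 FPKM, log2 ratio 3.20), DKK1 (from 40.7 to 91.2 FPKM, log2 ratio 1.14) and DKK3 (from 79.8 to 182 FPKM, log2 ratio 1.18), and the receptors ROR2 (from 2.86 to 7.26 FPKM, log2 ratio 1.10) and FZD1 (from 2.25 to 5.66 FPKM, log2 ratio 1.03). The ligand WNT5A was 41.1 to 45.4 FPKM, and the feedback target AXIN2 0.554 to 1.94 FPKM.

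In TGF-beta and BMP signalling, 6 of 37 rose and 0 fell. INHBA, the activin A chain, went from 43.2 to 136 FPKM (log2 ratio 1.63), its antagonist FST, follistatin, from 12.9 to 35.6 FPKM (log2 ratio 1.40), and TGFB2 from 33.8 to 71.2 FPKM (log2 ratio 1.05). TGFB1 (51.7 to 63.4 FPKM), TGFBI (658 to 616 FPKM) and SMAD7 (18.9 to 12.3 FPKM) were within the limit. Of 17 genes of FGF, PDGF and EGF-family signalling, 6 rose, led by the ligands NRG1 (from 15.3 to 94.3 FPKM, log2 ratio 2.55) and AREG (from 3.16 to 16.3 FPKM, log2 ratio 2.06), with FGF2 from 40.3 to 109 FPKM (log2 ratio 1.41) and the receptor PDGFRB from 22.7 to 55.5 FPKM (log2 ratio 1.25). Of 14 VEGF and angiopoietin genes, 6 rose, among them VEGFA (from 19.1 to 77.0 FPKM, log2 ratio 1.96) and VEGFC (from 27.0 to 62.1 FPKM, log2 ratio 1.17). Of 12 Notch genes, 4 rose, the receptors NOTCH1 (from 9.26 to 29.7 FPKM, log2 ratio 1.58) and NOTCH3 (from 6.80 to 22.4 FPKM, log2 ratio 1.59) and the ligands JAG1 (from 9.41 to 29.2 FPKM, log2 ratio 1.54) and JAG2 (from 0.234 to 1.90 FPKM, log2 ratio 1.23), while the target HES1 was 14.7 to 15.4 FPKM. No gene fell in these 3 lists.

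Among lipid and organelle genes, 8 of 35 of sterol and fatty acid synthesis rose and 0 fell. The cholesterol exporters ABCA1 (from 2.25 to 15.6 FPKM, log2 ratio 2.35) and ABCG1 (from 0.601 to 2.82 FPKM, log2 ratio 1.26) and the desaturases FADS1 (from 29.0 to 75.6 FPKM, log2 ratio 1.35) and FADS2 (from 39.2 to 89.9 FPKM, log2 ratio 1.18) were among the rises. Of 36 lysosome and autophagy genes, TPP1 (from 22 to 80.4 FPKM, log2 ratio 1.82) and CTSB (from 142 to 332 FPKM, log2 ratio 1.22) rose. Of 10 iron genes kept, 2 rose and 0 fell, and 6 had a lower value on day 3, with a median of -0.027. The 2 rises were FTH1, the ferritin heavy chain, from 1263 to 2783 FPKM (log2 ratio 1.14), and the iron exporter SLC40A1 from 1.26 to 4.16 FPKM (log2 ratio 1.19). PTGES, a prostaglandin E synthase, fell from 6.74 to 0.425 FPKM (log2 ratio -2.44), and PTGFR, the receptor of prostaglandin F2 alpha, rose from 2.58 to 6.63 FPKM (log2 ratio 1.09). Of 23 NRF2 genes, GPX1 rose (from 164 to 409 FPKM, log2 ratio 1.31) and PRDX1 (from 335 to 160.4 FPKM, log2 ratio -1.06), SLC7A11 and OSGIN1 (from 3.91 to 1.44 FPKM, log2 ratio -1.01) fell, of which SLC7A11 alone passed under the scaling to equal sums. Of 5 metallothioneins kept, 0 passed, with MT2A at 307 to 566 FPKM, which passed under the scaling to equal sums. In the circadian clock, BHLHE40 (from 15.5 to 46.3 FPKM, log2 ratio 1.52), RORA (from 2.77 to 7.92 FPKM, log2 ratio 1.24) and NR1D1 (from 5.30 to 12 FPKM, log2 ratio 1.05) rose and PER1 fell (from 14 to 4.89 FPKM, log2 ratio -1.35).

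HOX genes, which record the position along the body that a cell comes from, changed little. Of 34 kept, 0 rose and HOXA7 fell (from 12.7 to 5.67 FPKM, log2 ratio -1.03), and HOXC10 was 20.7 to 21.1 FPKM. The list median of -0.11 turned to 0.02 under the scaling to equal sums, by which HOXA7 did not pass. The labelled cell type was checked against its markers. VIM (1603 to 1833 FPKM), COL1A1, THY1 (50.3 to 120.4 FPKM) and NT5E (106 to 111 FPKM) were present on both days, and 3 of 13 fibroblast and osteoblast markers, BGLAP (0 and 0.781 FPKM), IBSP (0 and 0.0714) and SP7, were under 1 FPKM on both. BGLAP and IBSP are made by the mature osteoblast. Of the markers of other cell types, 6 of 8 of blood, 4 of 7 of endothelium, 7 of 8 of skeletal muscle, 7 of 10 of fat, 4 of 8 of epithelium and 5 of 8 of neural cells were under 1 FPKM on both days. The lysosomal CD68 was the main blood marker present (from 16.2 to 37.5 FPKM, log2 ratio 1.16), with PTPRC near 0. The simple keratins KRT8 (517 to 259.9 FPKM) and KRT18 (394 to 216 FPKM) were high on both days, with EPCAM at 0.788 and 0.289 FPKM. The summed chondrocyte markers were 20.5 and 21.1 FPKM, with COL2A1 and ACAN under 1, and SOX9 rose from 1.21 to 4.48 FPKM (log2 ratio 1.31).

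Among lncRNA genes, 337 were at least 2-fold higher (16.1%) and 126 lower (6.01%), beside 3.73% and 4.82% between days 9 and 6. The summed lncRNA FPKM was 21232 on day 0 and 31164 on day 3, and the median log2 ratio of all kept lncRNA genes was 0.24. After centring on that median, 218 were higher and 190 lower, so rises made up 53.4% of the lncRNA genes past the limit in place of 72.8%. Many calls rest on values of 0, as 80 of the 337 higher genes were listed at 0 on day 0 and 55 of the 126 lower ones at 0 on day 3. By class, 22.5% of 550 intergenic lncRNA genes rose and 5.82% fell, 13.2% and 5.51% of 853 antisense genes, and 26.9% and 23.1% of 104 genes of the class misc_RNA.

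Of 36 well-known lncRNAs kept, 8 rose and 4 fell. After centring on the lncRNA median 7 rose and 7 fell, and under the scaling to equal sums 9 rose and 2 fell. MALAT1, a nuclear RNA of splicing speckles and the most abundant of them, went from 2780.5 FPKM on day 0 to 6939.8 on day 3 (log2 ratio 1.32), and NEAT1, which builds paraspeckles, from 404 to 840.05 FPKM (log2 ratio 1.05), which did not pass after centring. The imprinted MEG3 went from 132 to 578 FPKM (log2 ratio 2.12) and H19 from 1.36 to 13.6 FPKM (log2 ratio 2.63). LINC01021, which p53 induces, went from 1.27 to 50.05 FPKM (log2 ratio 4.49), the largest rise among lncRNA genes above 0 on both days. LINC-PINT went from 3.14 to 13 FPKM (log2 ratio 1.76) and PVT1, beside MYC in the genome, from 10.8 to 34.0 FPKM (log2 ratio 1.57). DANCR, known as a brake on osteoblast differentiation, fell from 25.6 to 7.77 FPKM (log2 ratio -1.60), as did SNHG16 (from 125 to 56.9 FPKM, log2 ratio -1.12) and MIR22HG (from 22 to 9.79 FPKM, log2 ratio -1.09), both of which did not pass under the scaling to equal sums. GAS5 was 77.9 to 118 FPKM.

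The 5 largest lncRNA rises at 5 FPKM or more on the higher day were CTC-246B18.10, RP11-9M16.2, RP3-508I15.20, PTCSC2 and LINC01021. All but LINC01021 were listed at 0 on day 0, with 184, 123, 55.6 and 32.6 FPKM on day 3 in that order. The first 3 of them were again at 0 on day 6, and CTC-246B18.10 stood at 117 FPKM on day 9. The 5 largest falls, which included RP3-426I6.5, DISC2 and RP11-662M24.2, were all listed at 0 on day 3, from 39.3 FPKM down to 21.6 on day 0. Folds are not given for these 9 genes. Among lncRNA genes above 0 on both days, chosen after these values were seen, the largest rises after LINC01021 were LINC01173 (from 0.950 to 35.3 FPKM, log2 ratio 4.22), SLC8A1-AS1 (from 0.183 to 14.5 FPKM, log2 ratio 3.71) and RP11-597D13.9 (from 0.764 to 18.9 FPKM, log2 ratio 3.50). The largest falls were SNHG4, a host of small nucleolar RNA (from 17.4 to 1.52 FPKM, log2 ratio -2.87), RP4-794H19.1 (from 6.99 to 0.502 FPKM, log2 ratio -2.41) and PLCE1-AS1 (from 10.7 to 1.91 FPKM, log2 ratio -2.01).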

How the data were processed

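Total RNA of hFOB 1.19 cells was depleted of ribosomal RNA and sequenced from directional libraries, 1 for each of days 0, 3, 6 and 9. The authors deposited FPKM per transcript for 79798 mRNA and 4583 lncRNA transcripts. The methods name Bowtie and TopHat for alignment, while the submitters' processing notes name Bowtie 0.12.2 and mm8, a mouse build. The program that gave the FPKM and the annotation are not given in the sources used here. Per the labels, RNase R, which digests linear RNA, was used for the mRNA libraries and not for the circRNA ones, the reverse of common use. Whether the wording was swapped could not be settled, and the effect on FPKM was not tested. The authors' 9 tables of comparisons with day 0, which hold fold changes, p-values and q-values, were not used, nor were circRNA values.

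FPKM were summed per symbol (17 mRNA symbols cover several gene IDs) in Python 3.11.15 with pandas 2.3.3 and numpy 2.4.6. Genes with at least 1 FPKM on either day were kept, 1 was added, and the limit was a log2 ratio of 1 in either direction. With 1 library a day no test, SD or p-value was possible. The steps were tested on simulated data. Named genes were the 15 largest mRNA rises and falls at 10 FPKM or more, the 5 largest lncRNA rises and falls at 5 FPKM or more, and, from each list, key genes, the 3 highest and lowest members and those past the limit. Members and lists were chosen with earlier results of these data known. Promoter windows were RefSeq's, matched by symbol or through the Ensembl ID, for 10190 of the 12626 kept mRNA symbols. The CArG box, kappaB site and p53 decamer were searched by consensus on both strands, and CHR, CCAAT and E2F matches may overlap. Alternatives changed the pseudocount, the filter, the limit, the scaling and the way transcripts were combined. Values of some list members are not reported here.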

Additional observations from a re-analysis of the deposited data

How the results depend on the processing

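The 4 counts of genes past the limit were recomputed under 9 other settings, 2 of them added after the data were seen. At a 4-fold limit, 214 mRNA genes were higher and 99 lower, and 55 and 19 lncRNA genes. With FPKM scaled to equal sums, 441 mRNA genes were lower. A pseudocount of 0.1 gave 587 higher and 208 lower lncRNA genes, a minimum of 5 FPKM 129 and 56, and centring on the median 218 and 190. Without symbols listed at 0 on either day, one of the added settings, 71 lncRNA genes were lower. The other 24 counts stayed within 1.5 times the reported ones. The 4 of them without the filter on low FPKM could not differ. With 1 FPKM added, a gene under 1 FPKM on both days cannot reach the 2-fold limit. Of the 48 list medians, 40 kept their sign under all 8 settings that apply to them. The other 8 were DNA replication, heat shock proteins, interferon-stimulated genes, HOX, prostaglandin, NRF2, iron and mitochondrially encoded genes. By the most abundant transcript alone, 3 heat shock genes, 2 matricellular genes and 2 of sterol synthesis fell, 2 of homologous recombination rose, and 1 fell in each of MHC class I, TGF-beta and ribosomal protein genes. Of the 6 medians past the limit, those of mitosis, histones and p53 targets stayed past it throughout. Of 232 named genes, 121 were past the limit, of which 111 remained so under every setting that gave them a value and 0 changed sign. Genes listed at 0 on day 0 or day 3, such as LUZP6 and DISC2, had no value in the setting without such symbols. Genes under 5 FPKM on both days had none at the minimum of 5 FPKM. No paired analysis was possible because each day has 1 library. With no counts, depth cannot be weighed, and values under 5 FPKM are the least certain. Causes of these shifts were not tested.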
